A study of Homo sapiens with 4 samples.

Results

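The genes described here are YAP1 and its paralogue WWTR1 (TAZ), TEAD1 and TEAD3, and the YAP-regulated or YAP-regulating genes CCN1, CCN2, AMOTL2, ANKRD1, LATS2 and AJUBA. They were chosen by name, as rows of the count table whose Ensembl identifier maps to these symbols, and all 10 were found among 20263 genes. RNA was sequenced from HCT116, a line established from a human colorectal carcinoma, after 24 h of exposure to HJJ_3_5 (a derivative of piperine by the series title) or to the solvent DMSO. Each group held 2 samples, numbered 1 and 2, and the sources used here give no concentration of HJJ_3_5. The labels name no other agent or genetic change, and nothing in them says that samples of a group were separate cultures, so p-values measure a spread that may be technical.

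YAP and TAZ are transcriptional coactivators at the end of the Hippo pathway. The kinases MST1 and MST2 activate LATS1 and LATS2, which phosphorylate YAP and TAZ and hold them in the cytoplasm; unphosphorylated YAP and TAZ enter the nucleus and bind TEAD factors on DNA. In intestinal epithelium the pathway is known for its part in regeneration after injury and in tumour growth. Because YAP and TAZ are controlled by phosphorylation and location, mRNA of their target genes is commonly read as a sign of their activity, and mRNA of YAP1 itself is not.

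The libraries held 29211120 and 36455176 counts with HJJ_3_5 and 31120459 and 29769568 with DMSO. Levels are CPM, the counts of a gene relative to its library's total after scaling with TMM (trimmed mean of M-values) factors of 1.06 and 1.07 with HJJ_3_5 and 0.947 and 0.928 with DMSO. Replicate libraries differed by more than counting noise in both groups (chi-square per degree of freedom 47.9 with HJJ_3_5 and 36.5 with DMSO). The epithelial genes EPCAM, CDH1, KRT8, KRT18 and KRT19 were at 76.9 to 2991 CPM in every library. Of the colon markers, VIL1, CDX1 and LGALS4 were at or below 0.332 CPM, with CDX1 at no count, and KRT20 was at or below 1.16 CPM. CDX2 had 28.1 and 23.9 CPM with HJJ_3_5 and 14.1 and 15.2 with DMSO. Of these 10 epithelial and colon markers 7 were tested, and 2 rose while 0 fell, beside 9.17% higher and 8.27% lower among all genes tested. CDX2 had a log2 fold change of 0.83 (edgeR adjusted p = 0.0348) and KRT18 one of 0.83 (0.0293). With a trend with transcript GC content and length removed, 3 of these markers rose and 1 fell. Of 8 fibroblast markers COL1A1 alone exceeded 1 CPM and fell (log2 fold change -0.82, edgeR adjusted p = 0.0301), DCN and LUM were at 0, and the summed level was 35.4 and 40.8 CPM with HJJ_3_5 and 67.3 and 65.2 with DMSO. Endothelial markers summed to at most 2.58 CPM in a library. Of the leukocyte markers PTPRC was at 0, and CD68, which many cell types express, made nearly all of a summed 27.6 and 20.1 CPM with HJJ_3_5 and 42.9 and 37.0 with DMSO. What these markers contribute to the differences below was not tested. Counts from bulk RNA cannot tell fewer cells of a type from less RNA per cell.

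None of the 9 members that passed the filter on low counts was called higher or lower with HJJ_3_5 by edgeR, whose quasi-likelihood p was adjusted over all genes tested by the Benjamini-Hochberg method and read at 0.05. Of all 14180 genes tested, 17.4% were called, 9.17% higher and 8.27% lower, and whether 0 of 9 differs from that share was not tested. The median log2 fold change of the 9 members was 0.07, with a range of -0.36 to 0.28, against a median of 0.0013 over all genes tested. Their median absolute log2 fold change was 0.17, against 0.38 over all genes. The smallest absolute log2 fold change of any called gene was 0.40, larger than that of every member. The libraries of the 2 groups did not overlap for 5 of the 9, above DMSO for 3 and below it for 2, while this held for 69.0% of all genes (35.1% above, 33.9% below). YAP1 and LATS2 were the 2 members with an unadjusted p below 0.05. In the results below, ± after a log2 fold change is its standard error, and each 95% interval is that of the gene alone, not adjusted over genes.

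**Figure D1:**
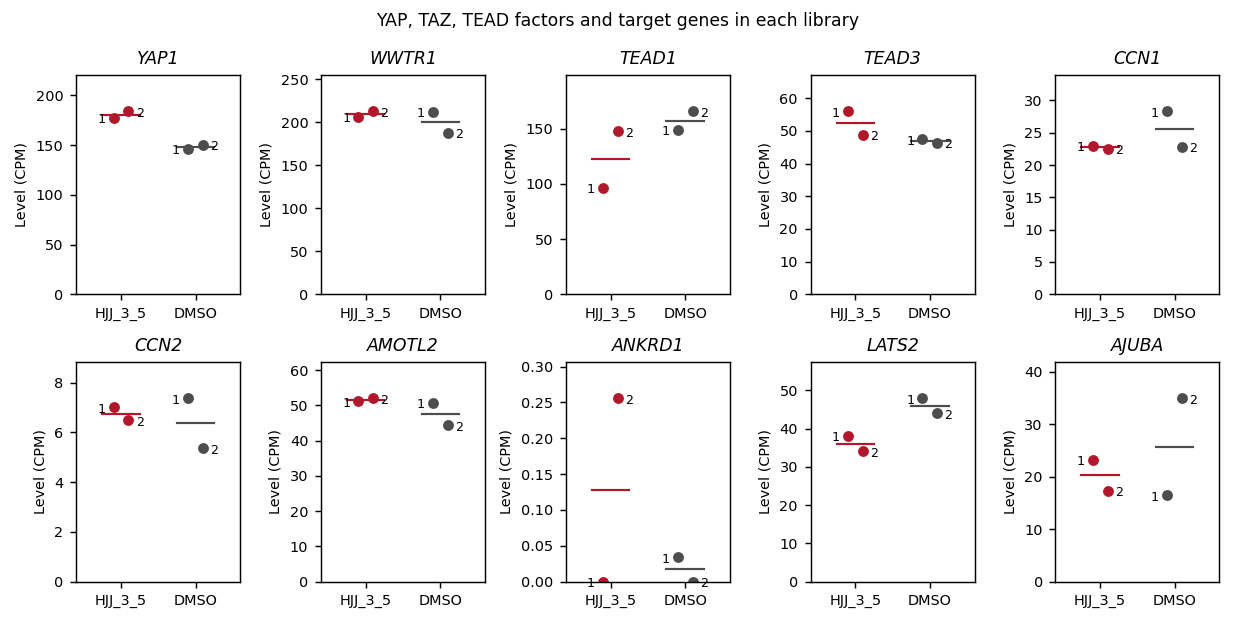
Level of each gene in CPM (linear axis from 0) in the 2 HJJ_3_5 and the 2 DMSO libraries. Points are libraries, numbered 1 and 2, and lines are group means. YAP1 at 177 and 184 CPM lies above DMSO at 146 and 151. By ratio of replicates, AJUBA (2.12 with DMSO) and TEAD1 (1.53 with HJJ_3_5) differ most within a group among the 9 tested members.

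YAP1, the coactivator itself (ENSG00000137693, GRCh38 chromosome 11, 102110461 to 102233423, plus strand), had 177 and 184 CPM in HJJ_3_5 libraries and 146 and 151 CPM in DMSO libraries. Both HJJ_3_5 libraries lay above both DMSO libraries, and replicates were close, with means of 181 ± 4.8 CPM with HJJ_3_5 and 148 ± 3.1 CPM with DMSO (SD, n = 2 each). Its log2 fold change was 0.28 ± 0.09, a fold of 1.22 with a 95% interval of 1.03 to 1.44, and it did not pass the test over all genes (edgeR adjusted p = 0.0880). YAP1 was called with library totals in place of TMM (0.47, adjusted p = 0.0318). It was also called after removal of a trend with transcript GC content and length (0.62 ± 0.11, adjusted p = 0.0265), so the size of its difference depends on the scaling while its direction was the same under all 13 alternatives run.

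WWTR1, which encodes TAZ (ENSG00000018408, chromosome 3, 149517235 to 149736714, minus strand), had 207 and 213 CPM in HJJ_3_5 libraries and 212 and 188 CPM in DMSO libraries. The groups overlapped. TAZ mRNA had a log2 fold change of 0.07 ± 0.10 (edgeR adjusted p = 0.652), and the interval of the fold, 0.868 to 1.27, leaves room for a modest difference in either direction. With the GC and length trend removed it was 0.40 (adjusted p = 0.129), and without DMSO 2 it was -0.02. Per kilobase of transcript, which allows genes to be set side by side, WWTR1 stood at 41.1 and 42.4 CPM per kb with HJJ_3_5 and 42.2 and 37.4 with DMSO. YAP1 stood at 32.9 and 34.1 CPM per kb with HJJ_3_5 and 27.1 and 27.9 with DMSO. By this measure, with the longest protein-coding transcript as length, TAZ mRNA was the more abundant of the pair in every library. WWTR1 over YAP1 stood at 1.25 and 1.24 with HJJ_3_5 and 1.56 and 1.34 with DMSO, not corrected for the GC and length trend. The ratio was lower in both HJJ_3_5 libraries, and an exact two-sided permutation test gave p = 0.333, the smallest that 2 against 2 samples allow.

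TEAD1 and TEAD3 are DNA-binding factors through which YAP and TAZ act. TEAD1 (ENSG00000187079, chromosome 11, 12674591 to 12944483, plus strand) had 96.7 and 148 CPM in HJJ_3_5 libraries and 149 and 166 CPM in DMSO libraries. HJJ_3_5 1 was low, and HJJ_3_5 2 lay just under DMSO 1. For TEAD1 the log2 fold change was -0.36 ± 0.23 (edgeR adjusted p = 0.290), with an interval of the fold from 0.515 to 1.17. One library set the value: it was -0.09 without HJJ_3_5 1, and -0.71, which was called (adjusted p = 0.0394), without HJJ_3_5 2. TEAD1 transcripts belong to the lowest of 5 equal classes of GC content and to the longest of 5 classes of length. The median log2 fold changes of all genes in these classes were -0.23 and -0.30, and with the trend removed that of TEAD1 turned to 0.15 (adjusted p = 0.344).

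TEAD3 (ENSG00000007866, chromosome 6, 35473597 to 35497076, minus strand) had 56.1 and 48.8 CPM in HJJ_3_5 libraries and 47.5 and 46.5 CPM in DMSO libraries. Both HJJ_3_5 libraries lay above the DMSO libraries, but HJJ_3_5 2 was nearer to them than to HJJ_3_5 1. TEAD3 had a log2 fold change of 0.16 ± 0.12 (edgeR adjusted p = 0.392; interval of the fold 0.889 to 1.40). Its transcript lies in the class of highest GC content, where the median log2 fold change was 0.24, and with the trend removed the value turned to -0.13. Of the other TEAD genes, TEAD2 had a log2 fold change of 0.42 ± 0.17 (edgeR adjusted p = 0.144) and TEAD4 one of 0.05 ± 0.12 (0.799).

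All 4 TEAD genes were expressed, and no one of them made the greater part of the TEAD mRNA. TEAD1 made 21.1% and 31.7% of their summed CPM per kb in HJJ_3_5 libraries and 33.2% and 35.4% in DMSO libraries. TEAD3 made 34.7% and 29.7% with HJJ_3_5 and 30.1% and 28.2% with DMSO. TEAD1 led in both DMSO libraries and in HJJ_3_5 2, where TEAD3 followed closely, and TEAD3 led in HJJ_3_5 1. The TEAD2 share was 20.2% and 15.8% with HJJ_3_5 and 13.1% and 14.1% with DMSO, and that of TEAD4 lay between 22.3% and 24.0% in all libraries. The exact two-sided permutation p was 0.333 for the shares of TEAD1 and TEAD2 and 0.667 for those of TEAD3 and TEAD4. These shares were not corrected for the GC and length trend, and the fold changes of TEAD1, TEAD3 and TEAD4 changed sign with it removed.

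**Figure D2:**
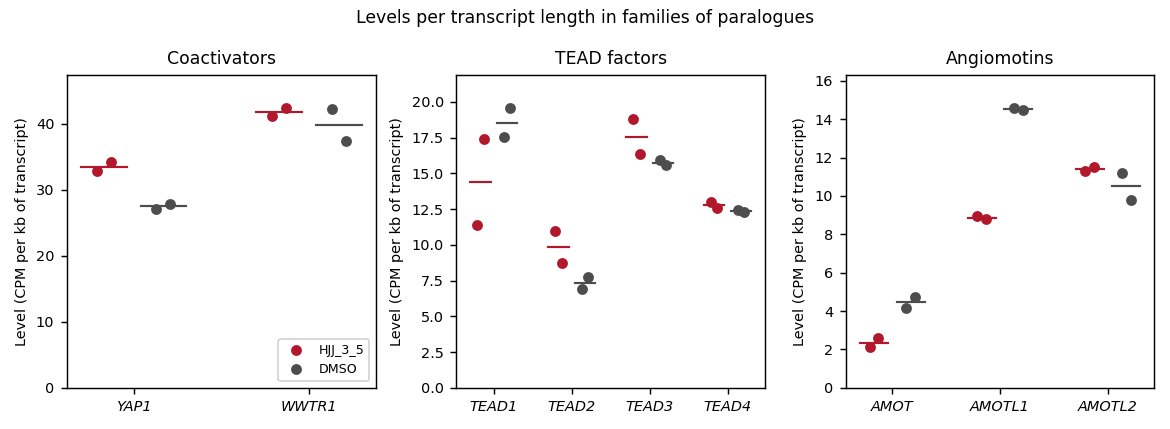
Level per kilobase of transcript (CPM per kb, linear axis from 0) of the coactivator, TEAD and angiomotin genes; points are libraries, lines are group means, with HJJ_3_5 left of DMSO for each gene. WWTR1 exceeds YAP1 in all libraries, and AMOTL1 lies at 8.95 and 8.79 CPM per kb with HJJ_3_5 and at 14.6 and 14.5 with DMSO while the AMOTL2 libraries lie between 9.81 and 11.5.

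CCN1 and CCN2 encode secreted matricellular proteins, CYR61 and CTGF, and are the most used readouts of YAP and TEAD activity. CCN1 (ENSG00000142871, chromosome 1, 85580761 to 85583962, plus strand) had 23.0 and 22.5 CPM in HJJ_3_5 libraries and 28.3 and 22.9 CPM in DMSO libraries. DMSO 1 was the highest library, and DMSO 2 lay between the HJJ_3_5 libraries, so the groups overlapped. CCN1 had a log2 fold change of -0.17 ± 0.15 (edgeR adjusted p = 0.453; interval of the fold 0.672 to 1.18), -0.0093 without DMSO 1, and 0.015 with library totals.

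CCN2 (ENSG00000118523, chromosome 6, 131948176 to 131951373, minus strand) had 7.01 and 6.49 CPM in HJJ_3_5 libraries and 7.36 and 5.36 CPM in DMSO libraries. Both HJJ_3_5 values fell between the 2 DMSO values. CCN2 had a log2 fold change of 0.08 ± 0.22 (edgeR adjusted p = 0.806), and the interval of the fold, 0.706 to 1.59, is wide for this gene, which rests on 148 to 254 counts a library. With the trend removed the value was -0.06. Per kilobase, CCN1 was the more abundant of the pair by 3.35-fold and 3.55-fold with HJJ_3_5 and by 3.93-fold and 4.35-fold with DMSO.

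ANKRD1, an ankyrin-repeat protein of cardiac muscle that YAP induces in many cell types (ENSG00000148677, chromosome 10, 90912096 to 90921276, minus strand), was hardly detected. It had 0 and 10 counts in HJJ_3_5 libraries and 1 and 0 counts in DMSO libraries, and did not pass the filter. In CPM these are 0 and 0.255 with HJJ_3_5 and 0.0339 and 0 with DMSO. The 0 in HJJ_3_5 1 allows up to 0.097 CPM and that in DMSO 2 up to 0.109 CPM (3 counts, counting error only). The 10 counts stood in HJJ_3_5 2 alone, so no fold is given.

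Promoter sequence is shown because CCN2 and ANKRD1 are textbook TEAD targets. The TEAD core GGAATG, or CATTCC on the other strand, was searched in RefSeq windows of 300 bases around the start site on GRCh38.p14. Windows were at hand for 8 members, 11 windows in all, and none for TEAD1 or CCN1. The motif stood in 6 of the 11 windows, against 14% of 35116 windows of all genes, and in 3 copies in that of CCN2, against 0.128% of all. Members were chosen as YAP and TEAD genes and their known targets, so these shares are a description and no test of enrichment. The stretches that hold the copies before the start site are given in lower case, 5′ to 3′ in the direction of the gene, with the motif in capitals.
CCN2, chr6:131951450-131951553, minus strand: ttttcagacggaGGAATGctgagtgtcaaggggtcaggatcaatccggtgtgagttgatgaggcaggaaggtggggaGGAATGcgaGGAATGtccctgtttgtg
ANKRD1, chr10:90921198-90921319, minus strand: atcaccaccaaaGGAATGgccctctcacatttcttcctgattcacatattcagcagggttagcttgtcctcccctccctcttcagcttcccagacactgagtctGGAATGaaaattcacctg
AMOTL2, chr3:134374499-134374528, minus strand: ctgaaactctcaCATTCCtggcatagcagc
AJUBA, chr14:22976884-22976913, minus strand: gggaagttggctGGAATGaagccaaagcaa
YAP1, chr11:102110273-102110302, plus strand: cgggagtgtgcaGGAATGtagcaacttgca
AMOTL2 and AJUBA each have 2 windows, 1 of which holds the motif. The copies of CCN2 begin 169, 104 and 95 bases before the start site and those of ANKRD1 220 and 128 bases before it. LATS2 holds 1 copy just after its start site, and the windows of WWTR1 and TEAD3 hold none. These matches are letters and not measured binding; in HCT116 the gene with 3 copies was at about 7 CPM and the gene with 2 was near 0, in both groups.

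AMOTL2, LATS2 and AJUBA encode regulators of YAP that are themselves target genes or junction proteins. AMOTL2, an angiomotin that binds YAP and retains it at junctions (ENSG00000114019, chromosome 3, 134355874 to 134375479, minus strand), had 51.1 and 52.0 CPM in HJJ_3_5 libraries and 50.7 and 44.4 CPM in DMSO libraries. The HJJ_3_5 libraries lay just above DMSO 1. AMOTL2 had a log2 fold change of 0.12 ± 0.12 (edgeR adjusted p = 0.520; interval of the fold 0.866 to 1.36), and -0.04 with the trend removed.

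LATS2, the kinase that phosphorylates YAP and is induced by it in a feedback loop (ENSG00000150457, chromosome 13, 20973032 to 21061547, minus strand), had 38.1 and 34.0 CPM in HJJ_3_5 libraries and 47.9 and 44.0 CPM in DMSO libraries. The groups did not overlap, with means of 36.1 ± 2.9 CPM with HJJ_3_5 and 45.9 ± 2.7 CPM with DMSO (SD, n = 2 each). LATS2 had a log2 fold change of -0.35 ± 0.13 (interval of the fold 0.622 to 0.991), which did not pass the test (edgeR adjusted p = 0.117). It was -0.33 with the trend removed (adjusted p = 0.0790) and -0.16 with library totals (0.386), and negative under all 13 alternatives run.

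AJUBA, a LIM-domain protein that binds LATS kinases at junctions (ENSG00000129474, chromosome 14, 22971174 to 22982642, minus strand), had 23.1 and 17.3 CPM in HJJ_3_5 libraries and 16.5 and 34.9 CPM in DMSO libraries. The DMSO libraries differed 2.12-fold and enclosed both HJJ_3_5 libraries. AJUBA had a log2 fold change of -0.34 ± 0.39 (edgeR adjusted p = 0.555; interval of the fold 0.383 to 1.62). It was -0.79 without DMSO 1 and 0.29 without DMSO 2, so these samples give no direction for AJUBA. Its relatives LIMD1 and WTIP had log2 fold changes of -0.13 ± 0.10 (edgeR adjusted p = 0.394) and 0.33 ± 0.15 (0.167).

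Several of these genes can share reads with neighbours. YAP1, WWTR1 and CCN2 share exon bases with an annotated antisense gene, AMOTL2 with the pseudogene RPL39P5 and AJUBA with another annotated gene on its strand. Among the paralogues, LATS1, AMOTL1, TEAD2 and VGLL4 share exon bases with a gene on the other strand, as do LIMD1, CTNNA1, THBS1, WWC2, AXL, VCL, TGFB1I1, CCN6 and ANKRD23, described further on, and KRT18 and KRT8 with each other. On the same strand, ANKRD23 also shares exon bases with ANKRD39, MOB1B with DCK and CD68 with another annotated transcript. No source used here says whether counting was by strand, so reads from the shared bases of all such pairs cannot be told apart. Counting by strand would not separate pairs on the same strand.

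Of the paralogues outside the 10 genes, the angiomotins AMOT and AMOTL1 and the kinase LATS1 were called. AMOT fell, with 15.6 and 18.9 CPM in HJJ_3_5 libraries against 30.6 and 34.7 CPM in DMSO libraries (log2 fold change -0.92 ± 0.16, edgeR adjusted p = 0.0340). AMOTL1 fell as well, with 80.3 and 78.8 CPM with HJJ_3_5 against 131 and 130 CPM with DMSO (-0.71 ± 0.09, edgeR adjusted p = 0.0276). Both kept the call with library totals and with the trend removed, which gave -0.59 for AMOT and -0.39 for AMOTL1. Leaving out 1 library gave -1.07 to -0.79 for AMOT and -0.73 to -0.70 for AMOTL1. Both lost the call without HJJ_3_5 1, DMSO 1 or DMSO 2, where few or no genes at all were called. AMOTL2 made 50.5% and 50.3% of the summed CPM per kb of the 3 angiomotin genes with HJJ_3_5 and 37.4% and 33.8% with DMSO. The groups did not overlap in this share, and the exact two-sided permutation p was 0.333, the smallest that 2 against 2 samples allow. The share was not corrected for the GC and length trend.

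LATS1, the sister kinase of LATS2, fell, with 23.8 and 27.2 CPM with HJJ_3_5 against 37.0 and 38.5 CPM with DMSO (log2 fold change -0.57 ± 0.13, edgeR adjusted p = 0.0495). That call was lost with library totals (-0.38, adjusted p = 0.0983) and with the trend removed (-0.10, 0.535), and narrowly with limma-voom (0.0503) and with no filter on low counts (0.0508). The log2 fold change of LATS1 was -0.48 without HJJ_3_5 1, -0.67 without HJJ_3_5 2, -0.60 without DMSO 1 and -0.54 without DMSO 2. Its call was lost without HJJ_3_5 1, DMSO 1 or DMSO 2. Few or no genes at all were called in those fits, so this loss is not particular to LATS1. The ratio of LATS2 to LATS1 per length was 2.19 and 1.71 with HJJ_3_5 and 1.76 and 1.56 with DMSO, and these overlapped. VGLL4, a TEAD-binding corepressor, had 52.2 and 52.9 CPM with HJJ_3_5 and 71.4 and 66.7 CPM with DMSO (-0.40 ± 0.11, edgeR adjusted p = 0.0652). It was called with the trend removed (-0.50, edgeR adjusted p = 0.0285) and with DESeq2 (-0.40, DESeq2 adjusted p = 0.0282). It was not called with limma-voom (-0.39, limma-voom adjusted p = 0.0622) or with library totals (-0.21, edgeR adjusted p = 0.220). VGLL3 was at or below 0.652 CPM in every library, and VGLL1 and VGLL2 had no count.

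**Figure D3:**
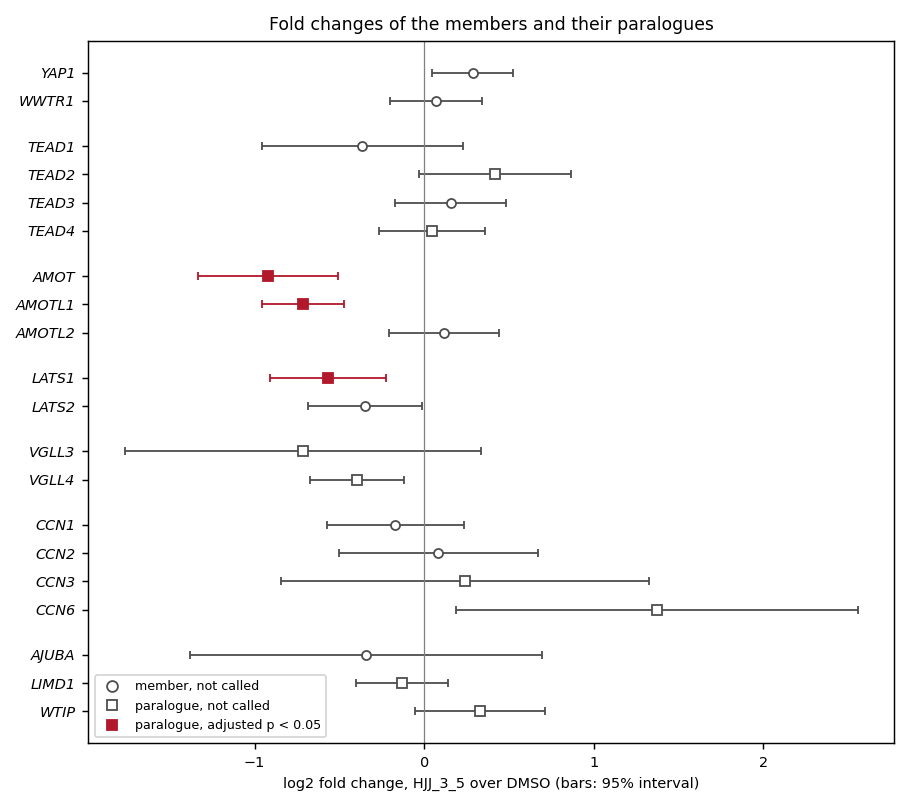
log2 fold change, HJJ_3_5 over DMSO, with its 95% interval for the 9 tested members (circles) and their paralogues (squares); filled red symbols have an adjusted p below 0.05. AMOT, AMOTL1 and LATS1 are the called ones, at -0.92, -0.71 and -0.57, and no member is called.

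The list of TEAD factors and coactivators, of which 8 of 10 were tested, held no called gene and had a median log2 fold change of 0.06. It held 1 gene called higher and 1 lower with the trend removed, 1 higher and 0 lower with library totals, and 0 higher and 1 lower with DESeq2. Of 24 genes of the kinase core and its activators, 2 rose and 3 fell, 19 did not pass, and the median log2 fold change was -0.37; the 5 calls are a share near the 17.4% of all genes. NUAK2, an AMPK-related kinase that is also a YAP target, rose, with 23.9 and 21.8 CPM with HJJ_3_5 against 14.2 and 14.6 CPM with DMSO (0.67 ± 0.13, edgeR adjusted p = 0.0385). TAOK2, a kinase that activates the core, rose by 0.43, and WWC2, a scaffold for LATS kinases, and MOB1B, a LATS cofactor, fell by 0.64 and 0.46. The calls of WWC2 and MOB1B were lost with library totals and with the trend removed, and that of TAOK2 with the trend removed. With library totals 4 genes of the list rose and 0 fell, with the trend removed 3 rose and 3 fell, and with DESeq2 3 rose and 6 fell, so the balance of its calls depends on the setting. The median stayed negative, at -0.16 with the trend removed and -0.18 with library totals.

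Of 22 junction and scaffold regulators, 1 rose, 6 fell and 15 did not pass, beside 9.17% higher and 8.27% lower among all genes, with a median of -0.41 (-0.28 with the trend removed). CTNNA1, alpha-catenin of adherens junctions, fell, with 238 and 283 CPM with HJJ_3_5 against 517 and 556 CPM with DMSO (-1.04 ± 0.12, edgeR adjusted p = 0.0273). FAT4, the human relative of the Drosophila cadherin Fat that acts upstream of Hippo in flies, fell, with 2.23 and 3.70 CPM with HJJ_3_5 against 18.1 and 26.0 CPM with DMSO. AMOT and AMOTL1 belong to this list too. The others called, named after their values were seen, were TJP1 (-1.45) and PARD3 (-1.15), which fell, and SCRIB (0.51), which rose. With library totals 3 genes of this list rose and 6 fell, with the trend removed 2 rose and 8 fell, and with DESeq2 2 rose and 10 fell. With relative log expression factors in place of TMM 0 rose and 8 fell, so the call of SCRIB was lost there. Of 13 genes of STRIPAK, the phosphatase complex that opposes MST1 and MST2, 1 rose and 3 fell (STRN, -0.87; SLMAP, -0.56; CTTNBP2NL, -1.07), beside the same shares of all genes. The median was -0.04, and 0.15 with library totals. STRN kept the call with the trend removed and with library totals, CTTNBP2NL kept it with the trend removed alone of these settings, and SLMAP lost it under both.

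In wider lists of YAP targets, the calls can be set beside the 17.4% of all genes. Of 22 genes in a signature of YAP and TAZ activity, which holds CCN1, CCN2, ANKRD1, AMOTL2 and LATS2, 19 were tested, 2 rose, 0 fell and 17 did not pass. With DESeq2 2 rose and 2 fell. The median was -0.13, and turned to 0.07 with the trend removed and 0.05 with library totals. The 2 were NUAK2 and FJX1, the human homologue of Drosophila four-jointed, with 17.9 and 15.02 CPM with HJJ_3_5 against 7.40 and 7.35 CPM with DMSO (1.16 ± 0.16, edgeR adjusted p = 0.0291). Among signature genes that did not pass, named after their values were seen, the receptor tyrosine kinase AXL had a log2 fold change of 0.31 ± 0.12 (edgeR adjusted p = 0.142) and MYOF, a membrane repair protein, one of -1.06 ± 0.26 (0.0562). Of 20 further targets, 17 were tested, 0 rose, 4 fell and 13 did not pass, with a median of 0.06. With library totals 4 rose and 2 fell, and with the trend removed 2 rose and 3 fell, so the balance of its calls depends on the scaling. The median stayed positive, at 0.24 with library totals and 0.28 with the trend removed.

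Of those that fell with TMM scaling, AREG and THBS1 encode secreted proteins and CAV1 a membrane protein. AREG, the EGFR ligand amphiregulin, had 371 and 379 CPM with HJJ_3_5 against 789 and 754 CPM with DMSO (-1.04 ± 0.09, edgeR adjusted p = 0.0244). THBS1, a matrix glycoprotein, had 15.8 and 16.8 CPM with HJJ_3_5 against 32.2 and 29.7 CPM with DMSO (-0.92 ± 0.12, edgeR adjusted p = 0.0282). CAV1, of the caveolar coat, fell by 0.50. With library totals the call of CAV1 was lost, and with the trend removed that of THBS1 (-0.53, adjusted p = 0.0507). EREG, which encodes another EGFR ligand and was also named after its value was seen, had 1076 and 1040 CPM with HJJ_3_5 and 853 and 736 CPM with DMSO (0.41 ± 0.11, edgeR adjusted p = 0.0624). Of 23 called genes named from all lists by smallest p, all kept their sign when HJJ_3_5 1, DMSO 1 or DMSO 2 was left out. None kept the call in those fits, where few or no genes at all were called, so this loss is not particular to them.

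**Figure D4:**
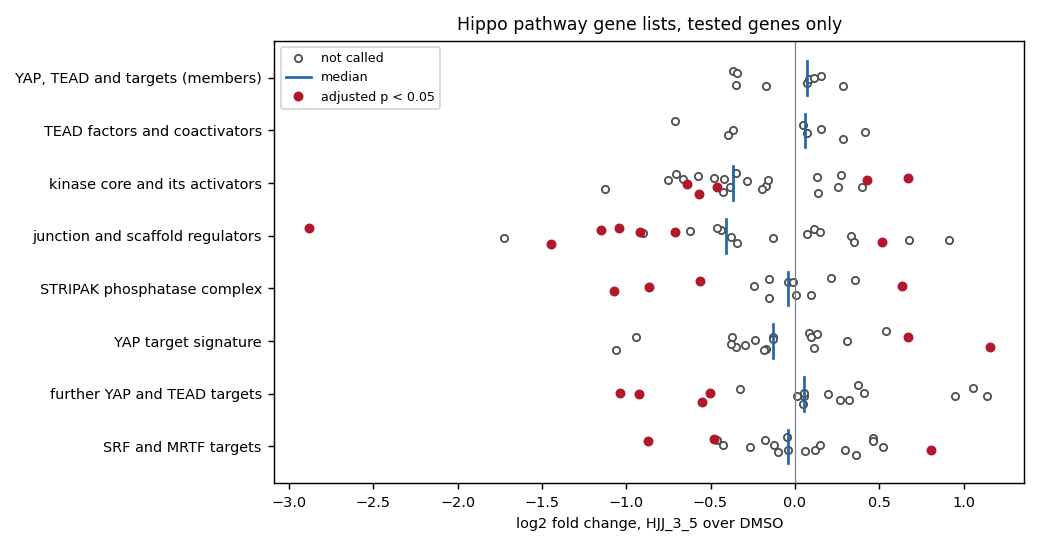
log2 fold change, HJJ_3_5 over DMSO, of each tested gene in 8 lists; open points are not called, red points have an adjusted p below 0.05, blue bars are medians, and vertical scatter within a list has no meaning. The top 2 lists hold no called gene, and the junction list reaches -2.88 (FAT4).

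**Figure D5:**
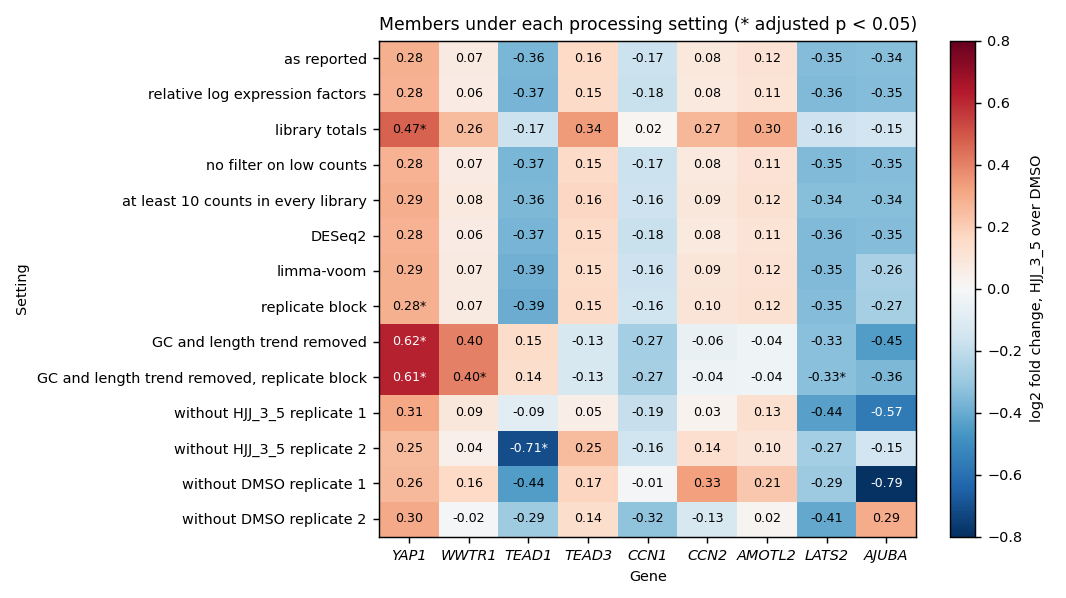
log2 fold change, HJJ_3_5 over DMSO, of the 9 tested members (columns) under the reported setting and 13 alternatives (rows), as colour and number; an asterisk marks an adjusted p below 0.05. YAP1 and LATS2 keep their sign in every row, and TEAD1, TEAD3, CCN2 and AMOTL2 change sign with the GC and length trend removed.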

How the data were processed

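The authors deposited 1 table of raw read counts per gene, with a column for each of 4 samples and no normalization. The sources used here name no aligner, counting tool or annotation. Builds named in the submitters' processing notes are the mouse GRCm38 and mm10, while the rows are human Ensembl identifiers. Positions, transcript length and GC content (longest protein-coding transcript) were taken by identifier from GENCODE 29 on GRCh38, so coordinates are not those of the authors' processing.

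Of the deposited counts, filterByExpr (minimum count 10, minimum total 15) left 14180 genes. The comparison of HJJ_3_5 over DMSO used the two-sided quasi-likelihood test of edgeR 4.0.16 in R 4.3.3, with TMM scaling and group as the only term, with Benjamini-Hochberg adjustment over all genes tested. Genes with an adjusted p below 0.05 are called. The standard error is the log2 fold change divided by the square root of F, and 95% intervals use the moderated degrees of freedom (4.64). Levels per length are CPM per kilobase. Alternatives were other scalings and filters, DESeq2 1.42.0, limma-voom 3.58.1, a replicate block, leaving out each library, and removal per library of a GC and length trend (splines of 4 degrees of freedom, as an offset). The method was tested on simulated counts, where 52% of 2-fold and 100% of 4-fold changes were called, and 9 unchanged genes. Simulated spread followed the trend with level alone, without differences between genes of like level, so these shares may not hold for the real counts. Smaller changes, like those of the members, were not simulated.

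Members and lists were chosen with earlier results of these data known. Named were all members, their paralogues, and at most 4 called genes with the smallest p of each other list; genes outside this are given as values or named as chosen after their values were seen. Some called genes that this names are counted but not reported here.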

Additional observations from a re-analysis of the deposited data

How the results depend on the processing

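Across 9 tested members and 13 alternatives, 98 of 117 fold changes kept their direction and side of the threshold, 7 passed it newly, and 12 changed sign without passing it. With library totals, which moved all log2 fold changes by a median of 0.187, 2614 genes were higher and 818 lower, 1 member (YAP1) was higher, and CCN1 turned to 0.015. DESeq2 called 1837 genes higher and 2152 lower and limma-voom 1281 and 1212, with 0 members each. At an unadjusted p below 0.05, edgeR had 2 members and so had both other tools. With the GC and length trend removed, 1718 genes were higher and 1800 lower, 1 member (YAP1) was higher, and TEAD1 (0.15), TEAD3 (-0.13), CCN2 (-0.057), AMOTL2 (-0.035) and TEAD4 (-0.25) changed sign. With the trend removed and the replicate block, 2318 genes were higher and 2683 lower, 2 members were higher (YAP1 and WWTR1) and 1 lower (LATS2), and the same genes changed sign, at 0.14, -0.13, -0.0425, -0.036 and -0.26.

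The labels number the samples but do not say that a number marks a shared culture. Deviations of same-numbered libraries from their group means had a Pearson correlation across genes of 0.167, which with 2 numbers does not establish a pairing. The replicate block gave 2077 genes higher and 2540 lower, with YAP1 called higher (0.28, adjusted p = 0.0467) and 0 members lower. It gave 3 genes higher and 7 lower in the kinase core, 3 and 3 in the signature, 3 and 4 among further targets and 3 and 4 among SRF and MRTF targets.

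Leaving out 1 library gave 0 to 976 genes higher and 0 to 1716 lower, with 0 members higher and 0 to 1 lower (TEAD1, without HJJ_3_5 2). Without HJJ_3_5 1 there were 0 and 0 genes called (4303 at an unadjusted p below 0.05), without DMSO 1 12 and 40, and without DMSO 2 0 and 4. Over the fits without 1 library the sign changed for WWTR1 (-0.018 to 0.16), CCN2 (-0.13 to 0.33) and AJUBA (-0.79 to 0.29), each without DMSO 2, and for CCN3 (-0.32 to 0.65), without HJJ_3_5 1. These fits hold 1 sample in a group, assumed to vary like the other group. Of 23 called genes named from the lists, 16 kept the call with library totals, 16 with the trend removed, 16 without HJJ_3_5 2, and 0 without each of the other libraries; all 23 kept their sign throughout. The cause of these changes was not tested. With 2 samples a group, the members' 95% intervals are as wide as 0.383 to 1.62 in fold (AJUBA). A member that was not called is therefore not shown to be unchanged.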

Other observations

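CCN1 and CCN2 are also targets of SRF and its coactivators of the MRTF family, which respond to actin dynamics. Of 20 genes in a list of SRF, MRTF and their cytoskeletal targets, 19 were tested, 1 rose, 2 fell and 16 did not pass, beside 17.4% called among all genes, with a median log2 fold change of -0.04. With library totals 4 rose and 1 fell (median 0.15), and with the GC and length trend removed 0 rose and 3 fell (-0.12), so the balance of calls depends on the scaling. VCL, which encodes vinculin of focal adhesions, fell, with 144 and 178 CPM with HJJ_3_5 against 298 and 292 CPM with DMSO (-0.87 ± 0.13, edgeR adjusted p = 0.0296). CNN3, an actin-binding calponin, fell by 0.48. TGFB1I1, a focal adhesion adaptor also called HIC-5, rose, with 12.3 and 12.1 CPM with HJJ_3_5 against 6.72 and 7.21 CPM with DMSO (0.81 ± 0.15, edgeR adjusted p = 0.0369). The call of CNN3 was lost with library totals and that of TGFB1I1 with the GC and length trend removed. SRF itself had 112.5 and 98.2 CPM with HJJ_3_5 and 90.8 and 81.0 CPM with DMSO (0.29 ± 0.13, edgeR adjusted p = 0.156).

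Other members of the CCN and ANKRD1 families were low. CCN3 had 2.84 and 1.46 CPM with HJJ_3_5 and 1.56 and 2.06 CPM with DMSO. CCN6 had 0.582 and 0.434 CPM with HJJ_3_5 and 0.204 and 0.181 CPM with DMSO (1.37 ± 0.45, edgeR adjusted p = 0.0951). CCN4 and CCN5 did not pass the filter, and of ANKRD1's relatives ANKRD23 had 1.02 to 1.68 CPM while ANKRD2 did not pass.

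By distance between centred log2 CPM over the 4 samples, the genes closest to YAP1 were MRPL50 (0.025), CTTN (0.027) and TCFL5 (0.028), and those closest to CCN2 were PLXND1 (0.019), GATB (0.040) and SNHG32 (0.054). With 4 samples and 10662 or 10663 genes compared, such closeness is a description only.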
